A study of Mus musculus with 6 samples.

Results

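The transcripts of 10 genes that mark the lining of blood vessels were compared in hind leg muscle, between untrained control mice (Con) and mice given exercise (EX). They were taken by symbol from the deposited gene table and are Cdh5, Pecam1, Flt1, Kdr, Tek, Tie1, Eng, Cldn5, Vwf and Emcn, 10 of the 16759 genes listed. The mice were C57BL/6J males, 8 weeks old at the start. The EX mice ran on a treadmill for 60 min a day, 5 days a week, for 6 weeks, covered 22 km each, and their tissue was taken 24 h after they last ran. The Con mice were not trained, and the time of their killing was not given in the sources used here. The animals were perfused with PBS, fat between the muscles was removed, and total RNA came from a small piece of hind leg muscle whose name is not stated. Each group holds 3 libraries. The labels do not state outright that each library came from a different mouse, so p-values measure the spread between these libraries. In whole muscle RNA, fewer endothelial cells and less of a transcript in each cell cannot be told apart.

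Endothelial cells line every vessel and hold to each other through adherens junctions built on VE-cadherin, the product of Cdh5, and through tight junctions that contain claudin-5, the product of Cldn5. Their growth and survival depend on vascular endothelial growth factor (VEGF) acting on its receptors, encoded by Flt1 and Kdr, and on angiopoietins acting on the receptor encoded by Tek together with its relative encoded by Tie1. Most endothelium of skeletal muscle lies in the capillaries that run along the fibres, and endurance training is known for raising the number of these capillaries.

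Of the 10 endothelial genes, 5 were lower in EX muscle (Flt1, Cdh5, Tie1, Pecam1 and Kdr), 1 was higher (Cldn5) and 4 did not pass the test (Eng, Tek, Emcn and Vwf). The test was edgeR's quasi-likelihood test over the 10883 genes whose FPKM averaged 1 or more, with a Benjamini-Hochberg adjusted p under 0.05, and all 10 genes entered it. Among all genes tested, 17.9% were called, 8.8% as lower and 9.11% as higher in EX. With library totals in place of TMM scaling these shares were 16.3% lower and 5.38% higher, and limma on TPM gave 15.5% and 3.12%. Leaving the 20 most abundant genes out of the totals gave 11.6% and 7.09%. The median log2 fold change was -0.15 over the 10 genes and -0.0009 over all genes tested, and the median size of a called change was 0.25. The changes of the endothelial genes were small, with the largest decrease at -17.1% for Flt1. The count of lower genes was 3 without EX replicate 3, 9 with library totals in place of TMM scaling, and the count of higher genes was 0 without Con replicate 2 and under 5 other fits described further on. Flt1, Cdh5 and Tie1 were called lower in all 17 alternative fits, and Cldn5 lay above 0 in each of them without always passing the test.

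Levels in a library are given as CPM, the counts scaled to a common library size by TMM, unless TPM is named. The 10 genes summed to 983, 967 and 953 CPM in the Con libraries and to 853, 861 and 840.2 CPM in the EX libraries, a difference of -12.0% between the group means. The groups did not overlap. The sum of the deposited TPM values, which are per length of transcript and not TMM-scaled, differed by -16.1%. With limma on log2(TPM + 0.1), the median log2 fold change of all genes tested was -0.091, against -0.0009 in the reported fit. Total counts per library were between 13845361 and 16240420, and the lowest count of any of the 10 genes in a library was 247, for Cldn5. At this depth 3 counts correspond to between 0.187 and 0.214 CPM, far under the level of each gene, and such limits cover counting error only. Con replicate 1 stood further from the other Con libraries (chi-square per degree of freedom over genes of 3.43 and 4.18) than those did from each other (1.78) or the EX libraries among themselves (1.89 to 2.36), and it had the highest sum of the 10 genes. Without it, 6 of the 10 genes were called lower and 1 higher, their median log2 fold change was -0.16 and their summed level in EX was 0.887 of that in Con, against 0.880 with it.

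**Figure D1:**
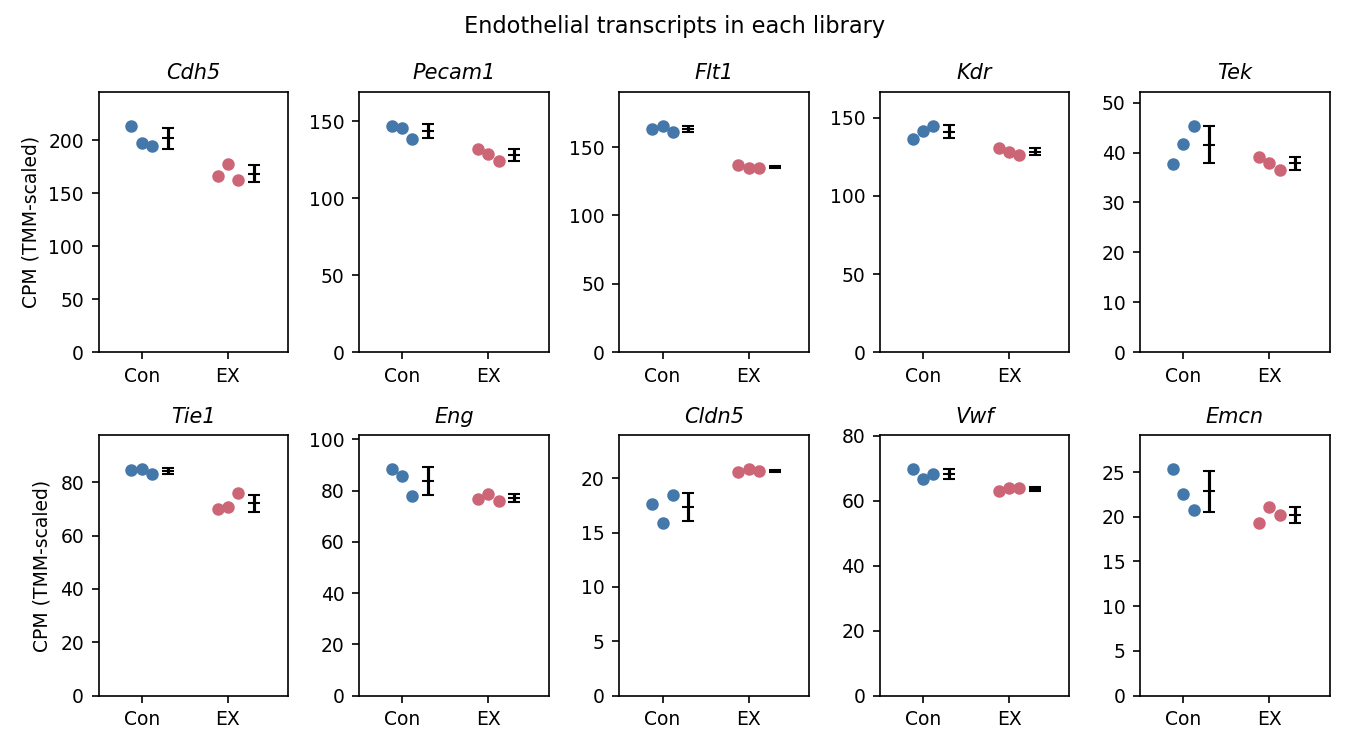
The level of each endothelial gene in CPM after TMM scaling is plotted for every Con and EX library as a point, with the mean and SD of 3 libraries beside the points and each axis starting at 0. Flt1, Cdh5, Tie1, Pecam1, Kdr and Vwf have all EX points below all Con points, Cldn5 has all EX points above, and Tek, Eng and Emcn overlap.

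TPM values serve here for the order of genes within a group, since their differences between groups include the shift of all genes given above. Per length of transcript, Cdh5 was the most abundant of the 10 genes in Con muscle at 81.6 ± 3.67 TPM (SD, n = 3), followed by Pecam1 at 71.9 ± 1.80 TPM. Eng (39.9 ± 2.34 TPM), Flt1 (38.4 ± 0.255 TPM) and Kdr (37.4 ± 1.28 TPM) came next, and each of these overlapped its neighbour in the order. Tie1 stood at 35.1 ± 0.245 TPM and Emcn at 30.0 ± 2.72 TPM. Cldn5 (23.6 ± 1.92 TPM), Tek (14.1 ± 1.36 TPM) and Vwf (11.9 ± 0.246 TPM) closed the order. In EX muscle Cdh5 (63.9 ± 2.17 TPM) and Pecam1 (60.3 ± 2.30 TPM) overlapped each other, and Eng followed at 34.4 ± 0.421 TPM. Kdr (31.9 ± 0.885 TPM) stood above Flt1 (29.7 ± 0.574 TPM) in EX with no overlap, whereas in Con these receptors overlapped with Flt1 on top. Cldn5 (26.3 ± 0.305 TPM) stood above Emcn (24.9 ± 0.730 TPM) in EX, the reverse of their order in Con. Tie1 at 28.2 ± 1.38 TPM overlapped Flt1 in EX, and Tek and then Vwf, at 10.5 ± 0.155 TPM, stayed lowest. The share of Cldn5 in the summed TPM of the 10 genes was 6.07%, 5.65% and 6.71% in the Con libraries and 8.17%, 8.10% and 8.27% in the EX libraries.

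**Figure D2:**
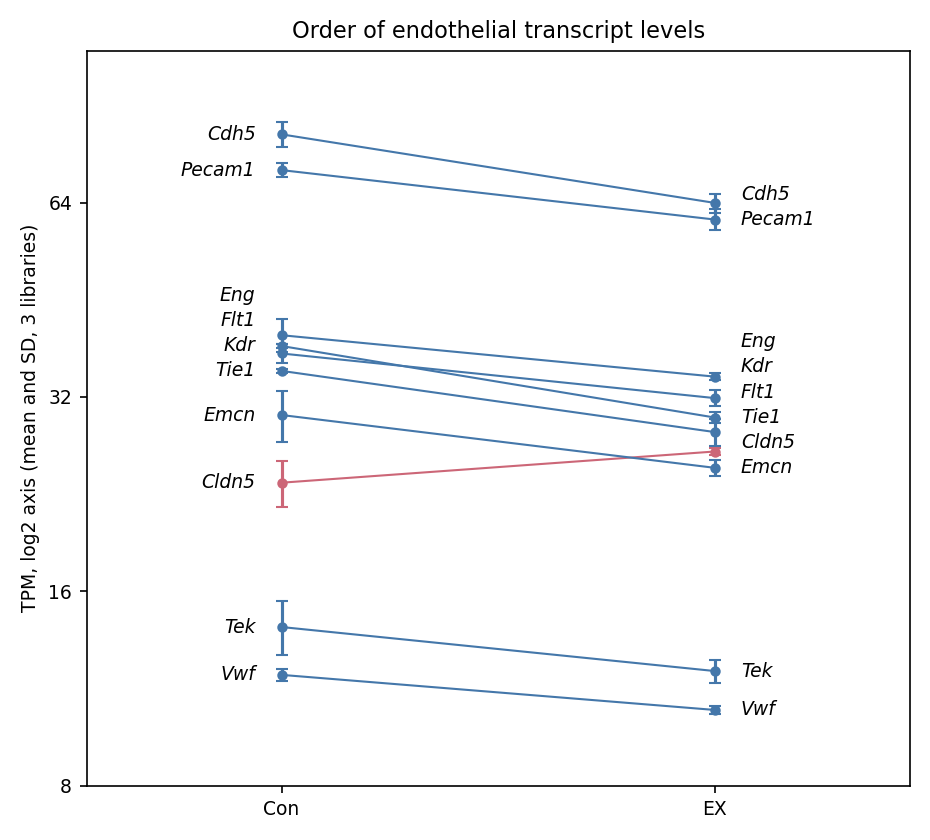
The mean level of each endothelial gene in TPM with the SD of 3 libraries is plotted on a log2 axis for Con and EX, and lines join the same gene. The lines of Flt1 and Kdr cross, and the line of Cldn5, which goes from 23.6 to 26.3 TPM, crosses that of Emcn. TPM values are not TMM-scaled, so the slopes include a shift of all genes.

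The 250 bases before the start of transcription are shown for Flt1 and Kdr, which were lower in EX, and for Cldn5, which was higher. They are RefSeq sequences of GRCm38.p6, in the direction of the gene, and the capitals mark GGAA or its complement TTCC, the core of the sites that the endothelial ETS factors recognise. Flt1 lies at chr5:147726012-147726261 (minus strand), Kdr at chr5:75978456-75978705 (minus strand) and Cldn5 at chr16:18776597-18776846 (plus strand).
Flt1: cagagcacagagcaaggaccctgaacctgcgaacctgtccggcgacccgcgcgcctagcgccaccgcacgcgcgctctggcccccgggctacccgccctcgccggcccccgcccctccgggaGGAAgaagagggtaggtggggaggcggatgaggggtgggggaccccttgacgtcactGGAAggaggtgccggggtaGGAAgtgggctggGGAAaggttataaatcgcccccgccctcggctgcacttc
Kdr: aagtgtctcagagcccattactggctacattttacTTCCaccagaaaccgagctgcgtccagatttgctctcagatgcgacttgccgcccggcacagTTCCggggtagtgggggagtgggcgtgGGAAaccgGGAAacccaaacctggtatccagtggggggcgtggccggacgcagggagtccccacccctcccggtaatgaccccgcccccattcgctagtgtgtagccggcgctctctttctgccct
Cldn5: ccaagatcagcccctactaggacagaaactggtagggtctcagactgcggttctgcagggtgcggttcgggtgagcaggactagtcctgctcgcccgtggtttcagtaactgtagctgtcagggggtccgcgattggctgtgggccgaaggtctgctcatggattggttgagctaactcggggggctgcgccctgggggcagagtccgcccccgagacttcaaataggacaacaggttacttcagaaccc
Both receptor windows held GGAA at 4 places, counted on both strands, and the Cldn5 window held none. Sequence was found for 7 of the 10 genes, and 6 of these 7 windows held GGAA, with 7 places for Tie1, 4 for Emcn, 3 for Eng and 2 for Tek. Of the 250-base windows of all 32851 promoters in the same source, 93.4% held GGAA, with a median of 3 places. The window of Tie1 lies for the most part inside a longer annotated transcript of the gene and is not shown. CACCC, the core of sites for KLF factors, was in 6 of the 7 windows and in 52% of all. A SOX core, ACAAT, was in 2 of the 7 and in 27.7% of all. The TATA box letters TATAAA were in 1, that of Flt1, and in 12.4% of all. A GATA site, AGATAA, was in 0 of the 7 and in 9.99% of all. Motifs were searched on both strands and could overlap. A match is a match of letters only. The Flt1 window had 70.4% G or C and 23 CpG, that of Kdr 61.6% and 16, and that of Cldn5 59.6% and 12, against medians of 52.4% and 6 over all windows.

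Flt1 encodes VEGF receptor 1, which binds VEGF tightly and, in its soluble form, withholds it from the other receptor. Its levels were 163, 165 and 161 CPM in Con and 137, 135 and 135 CPM in EX. The 3 EX libraries lay within 2 CPM of each other and all lay below Con. The difference was -17.1% (95% interval -21.5 to -12.3), a log2 fold change of -0.27 (SE 0.04, adjusted p = 9.1e-06). Kdr encodes VEGF receptor 2, the main signalling receptor for VEGF in endothelium. It was measured at 137, 142 and 145 CPM in Con and at 131, 128 and 126 CPM in EX, with no overlap. For Kdr the log2 fold change was -0.14 (SE 0.04, adjusted p = 0.0176), or -9.12% (95% interval -14.2 to -3.69). This call was lost on leaving out Con replicate 2 (adjusted p = 0.0561), Con replicate 3 (0.0700), EX replicate 2 (0.0567), or else EX replicate 3 (0.0954). The ratio of Kdr counts to Flt1 counts was 0.839, 0.856 and 0.897 in Con and 0.956, 0.950 and 0.935 in EX. All 3 EX ratios lay above the Con ratios. This ratio and the 6 others computed were chosen with the values known. A permutation test, whose lowest possible p with 3 libraries a group is 0.1, passed none of them.

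Tie1, an endothelial receptor that modulates angiopoietin signalling, stood at 84.7, 84.8 and 83.1 CPM in Con and at 69.9, 70.7 and 75.8 CPM in EX. EX replicate 3 lay closest to Con, still more than 7 CPM below its lowest library. In Tie1 this came to a log2 fold change of -0.22 (SE 0.05, adjusted p = 8.6e-04), or -14.3% (95% interval -19.7 to -8.52). Tek encodes Tie2, the receptor of the angiopoietins, and was measured at 37.8, 41.7 and 45.3 CPM in Con and at 39.1, 37.9 and 36.6 CPM in EX. The groups overlapped because Con replicate 1 lay at the level of the EX libraries. The log2 fold change of -0.14 (SE 0.06) did not pass the test (adjusted p = 0.115), and without Con replicate 1 it was -0.21 and passed (adjusted p = 0.0105). Counts of Tie1 over counts of Tek gave 2.24, 2.03 and 1.83 in Con and 1.79, 1.87 and 2.07 in EX, which overlapped.

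Cdh5, the adherens junction cadherin found almost exclusively in endothelium, was measured at 213, 197 and 195 CPM in Con and at 166, 177 and 162 CPM in EX. Its groups lay 17.3 CPM apart at the closest. This was a log2 fold change of -0.26 (SE 0.04, adjusted p = 7.4e-05), or -16.5% (95% interval -21.5 to -11.1). Pecam1 encodes CD31, an adhesion molecule at the contacts of endothelial cells that platelets and white blood cells also carry. Its levels were 147, 146 and 139 CPM in Con and 132, 128 and 124 CPM in EX, with no overlap. Pecam1 had a log2 fold change of -0.17 (SE 0.04, adjusted p = 0.00497), or -10.9% (95% interval -16.1 to -5.50), and without EX replicate 3 it missed the threshold (adjusted p = 0.0550). Beside the lower Pecam1, markers of macrophages were higher. Of the 7 macrophage markers above the filter, 6 were called higher in EX and 0 lower, and the 10 listed markers summed to between 44.0 and 48.8 CPM in Con and between 78.8 and 86.1 CPM in EX. The lowest adjusted p-values were those of Lyz2 (log2 fold change 0.85, adjusted p = 6.1e-10), C1qc (1.26, 5.3e-07) and C1qb (1.03, 1.6e-06). The 6 platelet markers summed to between 1.81 and 3.00 CPM in Con and between 3.33 and 4.44 CPM in EX, with Pf4, the 1 above the filter, called higher. The groups overlapped for each of the 5 other platelet markers, all under the filter, and Gp1ba, Gp9, Ppbp and Treml1 had at most 6 counts in a library. No listed macrophage or platelet marker was at 0 in all libraries, and the part of these cells in the Pecam1 and Vwf levels was not tested.

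Cldn5, the tight junction claudin of endothelium, was the exception in direction. It was measured at 17.6, 15.9 and 18.5 CPM in Con and at 20.6, 20.8 and 20.7 CPM in EX. The EX libraries were almost level with each other, and the closest Con library, replicate 3, lay 2.12 CPM below them. The log2 fold change of Cldn5 was 0.26 (SE 0.07, adjusted p = 0.0157), or 19.3% (95% interval 7.38 to 32.6). Without Con replicate 2, the lowest library, it was 0.19 and missed the threshold (adjusted p = 0.131), and DESeq2 gave 0.26 with an adjusted p of 0.0951. The 17 alternative fits gave it adjusted p-values between 0.0107 and 0.131. Relative to the mean of the other nine genes on the log2 CPM scale, Cldn5 stood at -2.33, -2.45 and -2.21 in Con and at -1.90, -1.91 and -1.89 in EX. The ratio of its counts to those of Cdh5, the other junction gene, was 0.0827, 0.0807 and 0.0950 in Con and 0.124, 0.117 and 0.128 in EX, without overlap.

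Eng, Vwf and Emcn were lower in EX on average and did not pass the test. Eng encodes endoglin, a co-receptor for ligands of the BMP and TGF-beta family, and stood at 88.2, 85.7 and 77.7 CPM in Con and at 76.9, 78.7 and 75.8 CPM in EX. Con replicate 3 lay among the EX libraries. Its log2 fold change was -0.12 (SE 0.05, adjusted p = 0.0921), and without Con replicate 3 it was -0.17 with an adjusted p of 0.0139. In the GENCODE annotation, 61 of the 4048 exon bases of Eng overlap exons of Fpgs on the opposite strand, and whether the counting used strand is not given in the sources used here, so a small part of the Eng counts is uncertain. Vwf encodes von Willebrand factor, the clotting glycoprotein that endothelial cells store and release. It was measured at 69.7, 66.6 and 68.3 CPM in Con and at 62.9, 64.0 and 64.1 CPM in EX, and the groups lay 2.52 CPM apart. Its log2 fold change was -0.10 (SE 0.05, adjusted p = 0.148). Emcn encodes endomucin, a sialomucin of capillary and venous endothelium, and stood at 25.3, 22.6 and 20.7 CPM in Con and at 19.3, 21.1 and 20.2 CPM in EX. Its log2 fold change of -0.17 (SE 0.08, adjusted p = 0.116) had the widest interval of the genes that were lower on average, -20.3% to -1.25%, and without Con replicate 3 the log2 fold change was -0.24 with an adjusted p of 0.0353. The EX and Con libraries did not overlap for 6 endothelial genes on the lower side and 1 on the higher side, beside 16.9% and 16.7% of all genes tested, or 33.7% in both directions.

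**Figure D3:**
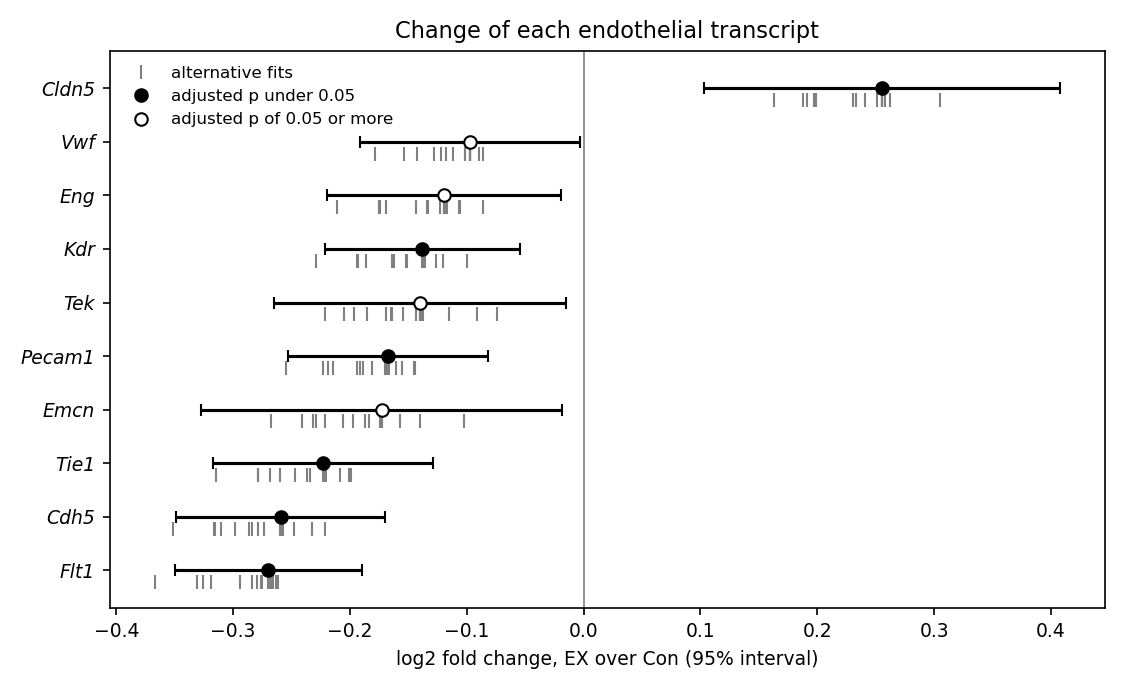
The log2 fold change of EX over Con from edgeR is plotted for each endothelial gene with its 95% interval, filled where the adjusted p was under 0.05, and grey ticks show the 17 alternative fits. Cldn5, at 0.26, is the 1 gene to the right of 0, and the other nine lie between -0.27 for Flt1 and -0.10 for Vwf.

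Within a group, the endothelial genes varied relative to each other in both directions. Over the 6 libraries, after subtracting each group's mean log2 CPM, 21 of the 45 pairs of genes had a positive correlation and 24 a negative one, with a median r of -0.12 and a range from -0.93 to 0.98. These are descriptions over 6 libraries that share tissue piece and depth within each library. The SD of log2 CPM within Con was 0.14 for Emcn, 0.13 for Tek, 0.11 for Cldn5 and 0.10 for Eng, against 0.02 for Flt1 and 0.02 for Tie1. Emcn, Tek and Eng, with a wide spread in Con, were the genes whose groups overlapped.

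Over the 6 libraries, the non-member genes most like the mean standardised level of the 10 genes were Svil, Nr1d1, Dusp3, Bhlhe40 and Dst, with Pearson correlations between 0.998 and 0.999. A difference between the groups raises such correlations, and 706 of the 10873 genes compared had one above 0.9. Among the 10 genes themselves, Cldn5 correlated with this mean level at -0.87 and Tek at 0.54, and the others between 0.78 and 0.98. After removal of the group means the most alike were Hpd, Rps21, Bmp2k, 1110032A03Rik and Mgp, with correlations above 0.99. Picking the highest of 10873 genes over 6 libraries yields such values by itself, so no likeness is read from them. Hpd was low, at 1.95 CPM in Con and 1.28 CPM in EX on average. Nr1d1, a repressor of the circadian clock, was measured at 348 CPM in Con and 193 CPM in EX on average, and Bhlhe40, another clock-linked repressor, at 259 and 202 CPM. The EX mice ran in the evening, and their tissue was taken 24 h after they last ran, whereas the hour for Con is not given in the sources used here. The part of the hour in the endothelial values was not tested.

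The ligands and co-receptors that act on Flt1, Kdr, Tek and Tie1 were mostly not called. Of the 11 above the filter, 0 were called higher and 2 lower, and the median log2 fold change was -0.01. Svep1, an extracellular matrix protein that binds Tie1, had EX libraries below all Con libraries, at a log2 fold change of -0.13 that did not pass the test (adjusted p = 0.297). Vegfa, the main VEGF of muscle fibres, stood at 545 ± 14.0 CPM (SD, n = 3) in Con and at 534 ± 5.41 CPM in EX, a log2 fold change of -0.03 (SE 0.03, adjusted p = 0.591), and limma on log2(TPM + 0.1) called it lower at -0.12 (adjusted p = 0.0467). Vegfb, a ligand of Flt1, was at 71.3 CPM in Con and 71.8 CPM in EX, and the sign of its difference turned with the scaling. Vegfc (log2 fold change 0.10), Vegfd (0.11) and Pgf (0.35), the latter a ligand of Flt1 at 1.40 and 1.79 CPM, were not called either. Angpt1, the agonist of Tek, was at 17.6 CPM in Con and 18.1 CPM in EX with a sign that also turned with the scaling. Angpt2, its antagonist in many settings, was at 6.25 ± 0.329 and 5.10 ± 1.44 CPM (log2 fold change -0.29, adjusted p = 0.202), and without EX replicate 2 it was called lower at -0.54 (adjusted p = 0.0174). Angpt4 lay under the filter at 0.236 CPM in Con and 0.358 CPM in EX.

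The called genes of that list both encode membrane partners of the endothelial receptors, and whole muscle RNA does not show which cells carried the transcripts. Nrp1, which holds VEGF for Kdr, was at 95.8, 95.5 and 91.3 CPM in Con and at 86.0, 81.9 and 83.0 CPM in EX, a log2 fold change of -0.17 (SE 0.04, adjusted p = 0.00654). Ptprb encodes VE-PTP, the phosphatase that acts on Tie2 and VE-cadherin, and was at 145, 147 and 144 CPM in Con and at 127, 123 and 122 CPM in EX (log2 fold change -0.23, SE 0.04, adjusted p = 1.2e-04). Nrp2 was at 24.9 and 24.7 CPM on average, with a sign that turned when Con replicate 1 or EX replicate 2 was left out. Counts of Ptprb over counts of Tek were 3.84, 3.52 and 3.19 in Con and 3.24, 3.25 and 3.35 in EX, which overlapped. Counts of Vegfa over counts of Kdr were 4.09, 3.75 and 3.77 in Con and 4.14, 4.15 and 4.21 in EX. Of the 11 regulators of Vegfa listed, 0 were called higher and 2 lower, with a median log2 fold change of -0.01. The called ones were Egln3, an oxygen-sensing prolyl hydroxylase (log2 fold change -0.36, adjusted p = 0.00315), and Epas1, which encodes HIF-2 alpha and is abundant in endothelium, at 278 ± 4.70 CPM in Con and 254 ± 4.40 CPM in EX (-0.13, adjusted p = 0.0141). Epas1 missed the threshold without Con replicate 2 (adjusted p = 0.0734), EX replicate 1 (0.0502) or EX replicate 2 (0.0632), so that 1 gene of this list was left.

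Other genes of endothelium were compared as lists written with earlier results of these data known. Of 22 further endothelial markers, 12 were called lower in EX and 0 higher, with a median log2 fold change of -0.18. The lowest adjusted p-values were those of Adgrf5, an adhesion receptor of the capillary bed, at 236 ± 0.961 CPM in Con and 197 ± 1.65 CPM in EX (log2 fold change -0.26, adjusted p = 5.8e-06), Mmrn2, a matrix protein of endothelium (-0.23, adjusted p = 0.00214), and S1pr1, the receptor for sphingosine-1-phosphate (-0.21, adjusted p = 0.00220). Leaving out EX replicate 1 or EX replicate 3 brought the count of lower genes to 7. Of 12 genes that mark lipid handling in capillaries, 6 were called lower and 0 higher, with a median of -0.18. Among them were Lpl, the lipase anchored on the capillary wall and made largely by muscle and fat cells, at 484 ± 17.3 CPM in Con and 367 ± 16.0 CPM in EX (-0.40, adjusted p = 1.3e-08), Rgcc, at 48.4 ± 4.67 and 31.4 ± 4.82 CPM (-0.62, adjusted p = 1.1e-06), and the water channel Aqp1 (-0.18, adjusted p = 3.8e-04).

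Of 15 arterial and Notch pathway genes above the filter, 6 were called lower and 1 higher, with a median of -0.19. Cxcl12, a chemokine made by arterial endothelium and stromal cells, was at 181 ± 0.864 CPM in Con and 153 ± 0.558 CPM in EX (log2 fold change -0.24, adjusted p = 2.6e-05). The receptor Notch1 (-0.29, adjusted p = 2.2e-04) and its ligand Jag1 (-0.35, adjusted p = 0.00103) were lower too. The 1 gene called higher was not called without Con replicate 2 or EX replicate 3, which left 0. Of 8 venous and activation genes, 0 were called higher and 1 lower, Il6st (-0.15, adjusted p = 0.00506), and the list also holds Vwf. Of the 10 tip cell genes above the filter, out of 12 listed, 0 were called higher and 1 lower, the chemokine receptor Cxcr4 at 5.72 ± 0.863 CPM in Con and 3.90 ± 0.547 CPM in EX (-0.55, adjusted p = 0.0120). Cxcr4 was not called by DESeq2 (adjusted p = 0.0594), nor without Con replicate 1 (0.0633) or EX replicate 1 (0.0825), which left 0 of the 10, and the count was 2 when Con replicate 2 was left out and 3 when EX replicate 2 was. Among the listed genes under the filter, 3 were called in the edgeR fit without a filter and were singled out after their values were seen. Esm1, a secreted product of tip cells, was counted 29, 35 and 33 times in the Con libraries, 17, 14 and 14 times in the EX libraries, and was lower (log2 fold change -1.15, adjusted p = 6.5e-04). Sema3a, a secreted inhibitor of vessel growth, was higher (0.67, adjusted p = 2.9e-04), as was the lymphatic marker Mmrn1 (1.82, adjusted p = 2.0e-08). Of 14 genes of vascular tone and clotting, 0 were called higher and 2 lower, Cav1, the caveolae protein (-0.23, adjusted p = 7.6e-05), and Ece1, the endothelin-converting enzyme (-0.16, adjusted p = 0.00674). Ece1 was not called without EX replicate 3 (adjusted p = 0.0811), and 1 gene of this list was called higher when Con replicate 1 was left out, and likewise for EX replicates 1 and 3. Where edgeR called 0 genes of a vascular list higher, DESeq2 and the limma fits also called 0, and at an unadjusted p under 0.05 edgeR gave 1 higher gene in the venous list (Lrg1), 2 in the list of tone and clotting (Ptgis and Thbd) and 0 in the others.

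Of 15 junction partners of Cdh5 and Cldn5 above the filter, 4 were called lower and 2 higher, and the latter count was 0 in the 3 limma fits and 1 with DESeq2. Afdn, the junction scaffold afadin, was at 127 ± 4.25 CPM in Con and 112 ± 4.48 CPM in EX (log2 fold change -0.19, adjusted p = 0.00274), and Jup, which encodes plakoglobin and binds cadherin tails, was at 112 ± 5.27 and 100.2 ± 1.91 CPM (-0.16, adjusted p = 0.0127, and 0.0589 without EX replicate 1). Cd99l2, a surface protein at endothelial contacts, was at 105 ± 1.34 CPM in Con and 121 ± 6.83 CPM in EX (0.21, adjusted p = 0.00143), and was not called in the limma fits on log2(FPKM + 0.1), log2(FPKM + 1) and log2(TPM + 0.1) (adjusted p = 0.0629, 0.0625 and 0.103). The count of lower genes was 2 without EX replicate 2, and that of higher genes was 1 without Con replicate 1 or 3 or EX replicate 1 or 3. Of 12 BMP and TGF-beta partners of endoglin, 1 was called lower, Id3 (-0.29, adjusted p = 0.00112), and 1 higher, Id1 (0.20, adjusted p = 0.0327), both of them BMP targets that inhibit transcription. Id1 was not called without Con replicate 2 (adjusted p = 0.182), EX replicate 2 (0.146) or EX replicate 3 (0.0765), nor under DESeq2 (0.150), with a highest adjusted p of 0.151 in the limma fits, nor with the replicate block (0.0534), library totals (0.126), totals without the 20 most abundant genes (0.0608), the stricter filter (0.0501) or the offsets (0.0520), so that 12 of 17 alternatives did not keep it, and the count of lower genes was 2 without Con replicate 1 or EX replicate 3.

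Of 19 transcription factors of endothelium, 5 were called lower and 3 higher. Klf4 and Klf2, which fluid shear induces in endothelium, were 2 of those higher. Klf4 stood at 20.0, 18.5 and 18.1 CPM in Con and at 28.6, 30.6 and 30.6 CPM in EX, a log2 fold change of 0.67 (SE 0.07, adjusted p = 2.7e-08). Klf2 stood at 28.6, 24.8 and 28.0 CPM in Con and at 36.4, 38.5 and 35.7 CPM in EX, a log2 fold change of 0.45 (SE 0.06, adjusted p = 7.1e-06). Neither gene is restricted to endothelium, and macrophages also express them. Counts of Klf2 over counts of Pecam1 were 0.195, 0.170 and 0.202 in Con and 0.276, 0.300 and 0.289 in EX, without overlap. Sox7, a factor of early endothelium, stood at 15.8, 16.7 and 17.8 CPM in Con and at 12.9, 11.7 and 13.5 CPM in EX (log2 fold change -0.40, SE 0.08, adjusted p = 0.00104). The count of lower factors dropped to 2 when Con replicate 2 was left out, and likewise for EX replicates 1 and 2. Of 8 inhibitors of vessel growth above the filter, out of 11 listed, 4 were called higher and 1 lower, with a median of 0.13. Sparc, a matrix protein made mostly by stromal cells, was at 299 ± 9.15 CPM in Con and 364 ± 7.78 CPM in EX (0.28, adjusted p = 1.7e-06), Thbs2 at 9.48 ± 1.16 and 13.1 ± 1.06 CPM (0.47, adjusted p = 0.00136, and between 0.0518 and 0.0624 in the limma fits), and Timp3 was lower (-0.20, adjusted p = 1.6e-04). The count of higher inhibitors was 2 without Con replicate 3 or EX replicate 2.

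The pericytes that wrap capillaries were read from 10 markers, of which 7 were called lower and 0 higher, with a median of -0.30. Rgs5, the G protein regulator typical of pericytes, was at 640 ± 20.2 CPM in Con and 498 ± 14.5 CPM in EX (log2 fold change -0.36, adjusted p = 1.9e-08). Pdgfrb, the receptor by which endothelial PDGF-B holds pericytes, was lower (-0.40, adjusted p = 3.8e-07), as was the potassium channel gene Kcnj8 (-0.45, adjusted p = 2.7e-05). Counts of Pdgfrb over counts of Pecam1 were 0.561, 0.544 and 0.569 in Con and 0.443, 0.489 and 0.496 in EX, with no overlap. Of 7 smooth muscle markers, 2 were called lower, Myh11 (-0.30, adjusted p = 1.2e-04) and Mylk (-0.25, adjusted p = 0.00117), and 1 higher, Acta2 (0.15, adjusted p = 0.0344). Acta2 was not called in the fits without Con replicate 2 (adjusted p = 0.232), Con replicate 3 (0.0720), EX replicate 1 (0.118), EX replicate 2 (0.0748) or EX replicate 3 (0.0694). Nor was it called with DESeq2 (0.114), with the other totals, with the stricter filter or with limma, so that 12 of 17 alternatives did not keep the call.

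**Figure D4:**
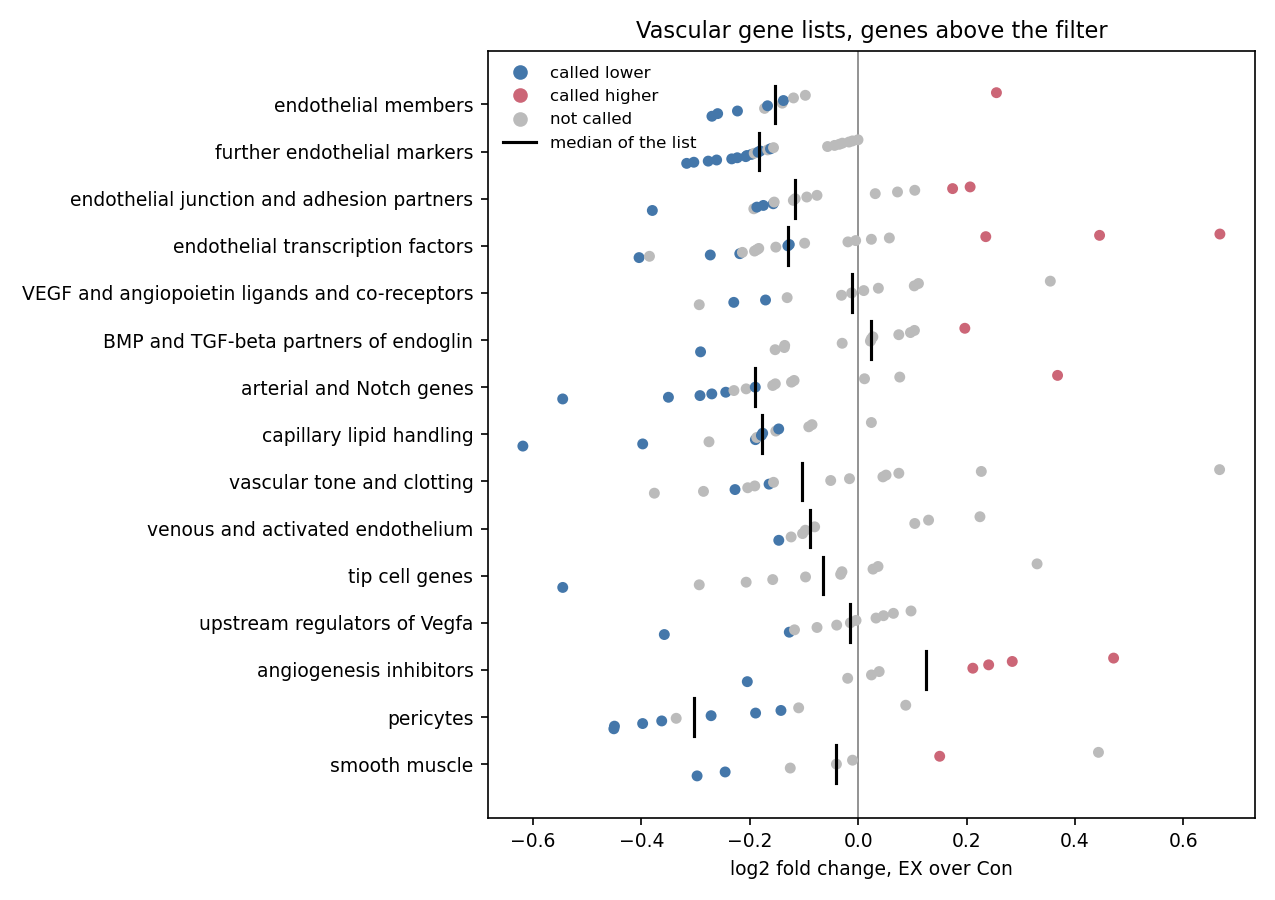
The log2 fold change of EX over Con from edgeR is plotted for each gene above the filter in the vascular lists, 1 row a list, with blue points called lower, red points called higher, grey points not called and a black bar at the median of the list. The medians of the 10 endothelial genes (-0.15), further markers (-0.18) and pericytes (-0.30) lie to the left of 0, and that of the inhibitors of vessel growth (0.13) to the right.

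Markers of some other cells differed between the groups, and those of fibro-adipogenic stromal cells mostly did not pass the test. All 7 slow fibre genes were called higher in EX, their sum ranging from 87.5 to 94.8 CPM in Con and from 292 to 325 CPM in EX, led by Myh7, the slow myosin, at 0.929, 0.887 and 1.19 CPM in Con and at 99.1, 110.2 and 96.3 CPM in EX. Tnnt1 (log2 fold change 4.26, adjusted p = 4.2e-19) and Myl2 (3.48, 1.1e-17) were higher as well. Of 9 fast fibre genes, 5 were called higher and 2 lower. Myh2 was lower, at 752 ± 11.8 CPM in Con and 448 ± 8.64 CPM in EX (-0.75, adjusted p = 1.4e-15). Mylpf (0.30, adjusted p = 1.1e-07) and Myl1 (0.22, 1.8e-05) were higher, and Myl1 was not called in the limma fits (0.0550 to 0.0842). Of 4 lymphatic markers above the filter, 2 were higher and 0 lower, Lyve1 (log2 fold change 1.64, adjusted p = 4.8e-07) and Ccl21a (1.84, adjusted p = 8.2e-12), and the counts of Ccl21a were not whole, so reads may be shared with near-identical copies. A further lymphatic marker, Flt4, which encodes VEGF receptor 3, had all EX libraries below Con without passing the test (log2 fold change -0.21, unadjusted p = 0.0177, adjusted p = 0.0817). Of 5 red cell markers, 1 was called higher, Hba-a1 (0.19, adjusted p = 0.00775). It was not called without Con replicate 2 (adjusted p = 0.0532) or EX replicate 2 (0.0835), with library totals only (0.0517) or in the limma fits (0.136 to 0.221). The counts of Hba-a1 were not whole either, so reads may be shared with its near-identical copy Hba-a2. Hba-a2 was not called (0.14, adjusted p = 0.102), and its groups overlapped. The 6 listed red cell markers summed to between 241 and 265 CPM in Con and between 263 and 290 CPM in EX. Of 8 markers of fibro-adipogenic stromal cells, 0 were called in either direction by edgeR with TMM scaling or by DESeq2, and 2 in each direction had an unadjusted p under 0.05 in that edgeR fit. With library totals edgeR called 3 lower, as did limma on TPM, edgeR without the 20 most abundant genes and with the offsets for GC content and length called 1, and edgeR called 1 lower without Con replicate 3 or EX replicate 2 and 2 higher without Con replicate 1. Their sums overlapped, at 601 to 664 CPM in Con and 604 to 618 CPM in EX. The most abundant of them, Dcn, was at 331 ± 23.1 and 309 ± 7.78 CPM (adjusted p = 0.118), and it was called lower with library totals (log2 fold change -0.15, adjusted p = 0.00881), without the 20 most abundant genes (-0.12, 0.0424), with limma on TPM (-0.19, 0.0323) and without Con replicate 3 (-0.15, 0.00836). The part that the fibre, macrophage, lymphatic and red cell differences had in the endothelial values was not tested.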

How the data were processed

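Hind leg muscle of 3 Con and 3 EX libraries was analysed. Per the labels and the paper's methods, the authors extracted total RNA with TRIzol, sequenced paired ends on the DNBseq platform and filtered low-quality reads. The paper names HISAT and the GRCm39 assembly, whereas the submitters' processing notes name GRCm38.p6, cutadapt, featureCounts and MultiQC without their roles, so the build of the counts is unsettled, and the only positions given are those of the RefSeq promoter windows, which were not used with the counts. Estimated counts, which are not normalized, were deposited by the authors together with their FPKM and TPM of each gene and library. Between 4.18% and 4.44% of the counts in a library were not whole, and none of those of the 10 endothelial genes. Another 6 columns of the table, with group means, were not used.

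Counts were rounded and tested with edgeR 4.0.16 in R 4.3.3 (TMM scaling, glmQLFit and glmQLFTest, mean FPKM of 1 or more, Benjamini-Hochberg over all genes tested, threshold 0.05). Alternatives were DESeq2 1.42.0, other scalings and filters, limma 3.58.1 on log2(FPKM + 0.1), log2(FPKM + 1) and log2(TPM + 0.1), a replicate block and each library left out in turn. Offsets for GC content and length, available by symbol for 98.6% of tested genes, were chosen after seeing the data.

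The endothelial genes and all lists were chosen with earlier results of these data known, so counts and medians of lists are descriptions with no test over the list. All 10 endothelial genes and all VEGF and angiopoietin genes were named. From each other list up to 3 genes were named by rule. These were the called genes of lowest adjusted p whose groups did not overlap, or else the gene of highest mean CPM. Outside this rule, Lrg1, Ptgis, Thbd, Flt4, Esm1, Sema3a, Mmrn1, Hba-a2 and platelet markers under the filter were named with their values known. Motifs were counted in RefSeq promoters of GRCm38.p6 (250 bases before the start). No batch of sequencing is given in the labels. Within a group no pair of libraries agreed within sampling noise, and Con replicate 1 stood apart from the other Con libraries.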

Additional observations from a re-analysis of the deposited data

How the results depend on the processing

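The endothelial genes called lower numbered 5 in the reported fit, 9 with library totals only and between 3 and 6 when 1 library was left out, the lowest without EX replicate 3. Those called higher numbered 1, and 0 with DESeq2, with library totals only, with limma on log2(FPKM + 0.1), log2(FPKM + 1) and log2(TPM + 0.1), and between 0 and 1 when 1 library was left out. Their median log2 fold change, -0.154 as reported, was -0.178 with totals without the 20 most abundant genes, -0.210 with library totals only, -0.206, -0.200 and -0.241 with the 3 limma fits in the order above, -0.134 with the offsets for GC content and length, and between -0.184 and -0.135 when 1 library was left out. The summed level of EX over Con, 0.880, was 0.847 with library totals and 0.839 from TPM, and between 0.873 and 0.887 when 1 library was left out. The causes were not tested.

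No endothelial gene changed sign. Relative to the median of all genes, which no alternative moved by more than 0.1, the median of the 10 genes stayed between -0.18 and -0.13. Cdh5, Flt1 and Tie1 were called in all 17 alternatives. Kdr was also lost with the offsets (adjusted p = 0.0669), and Eng, Tek, Vwf and Emcn were gained with library totals only, Eng with totals without the 20 most abundant genes and with TPM, and Emcn with TPM and log2(FPKM + 1). Genes of the further lists called higher, 34 as reported, numbered 21 with each limma fit, and those called lower, 53, stayed between 42 and 52 when 1 library was left out. Over all genes, 991 were called higher and 958 lower, against 643 and 585 with DESeq2, 772 and 1259 with totals without the 20 most abundant genes, 586 and 1771 with library totals only, 411 and 1037, 411 and 1032, and 340 and 1684 with the limma fits.

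Signs turned for Vegfb (0.010 as reported), which was -0.014 with totals without the 20 most abundant genes, -0.046 with library totals only, -0.00399 with a mean of at least 5 FPKM, -0.051, -0.051 and -0.087 with the limma fits, -0.030 with the offsets and -0.017, -0.014 and -0.015 without Con replicate 3, EX replicate 2 and EX replicate 3, with a highest value of 0.059 without EX replicate 1. Angpt1 (0.037) was -0.019 with library totals only, -0.019, -0.016 and -0.053 with the limma fits and -0.0012 without Con replicate 2, with a highest value of 0.074 without EX replicate 1. Nrp2 (-0.012) was 0.051 with the offsets, 0.003 without Con replicate 1 and 0.010 without EX replicate 2, with -0.044 as the lowest value when 1 library was left out.

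Same-numbered Con and EX libraries correlated at -0.08, -0.05 and -0.07 after removal of the group means, which shows no sign of pairing by number. With 3 libraries a group, these values cannot decide whether libraries of the same number shared handling. With the replicate number as a block, 909 genes were called higher and 873 lower, the median of the endothelial genes was -0.153, and the same 6 endothelial genes were called, 5 lower and 1 higher. Of the other genes named, Id1 lost its call under the block (adjusted p = 0.0534). No library correlated best with its own number. The number of libraries limits the precision of every value, and a missed threshold does not show that levels were equal.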
